A study of Homo sapiens with 3 samples.

Results

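HAND1 (ENSG00000113196) is 1 of the 38606 genes counted in 3 single-cell RNA libraries, and it was found by its symbol in each count matrix. The libraries came from micropatterned colonies of HES3, a long-established line of human embryonic stem cells, here with a green fluorescent protein reporter at MIXL1. After 24 h with 10 µM Y27632, an inhibitor of ROCK kinase, the colonies received 1 of 3 treatments, each lasting 48 h. For the BMP4 library this was 50 ng/mL BMP4, which activates BMP receptors. The CHIR+Activin library received 3 µM CHIR99021, a GSK3 inhibitor that activates WNT signalling, with 100 ng/mL Activin A, a ligand of the NODAL receptors. The CHIR library received 6 µM CHIR99021 alone. Each treatment was 1 library of about 10 pooled colonies of 1 reporter line, with no untreated library here, so no test between treatments was possible and every interval below is a 95% interval for counting error only.

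HAND1 is a transcription factor of the basic helix-loop-helix (bHLH) family, which binds DNA as a dimer with the E-proteins TCF3, TCF4 and TCF12. ID proteins bind the E-proteins and so keep such dimers off DNA. In embryos HAND1 is known from lateral plate and extraembryonic mesoderm, the forming heart, the amnion and trophoblast, and it lies downstream of BMP signalling.

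The HAND1 gene lies on the minus strand of chromosome 5. Its promoter is shown because the results turn on where this gene was transcribed. The window is chr5:154478178-154478477 (GRCh38.p14, minus strand, RefSeq), written in the direction of transcription from 250 bases before the start site to 50 bases after it. Capitals mark matches to TATAA and GATAA on either strand.
HAND1 promoter: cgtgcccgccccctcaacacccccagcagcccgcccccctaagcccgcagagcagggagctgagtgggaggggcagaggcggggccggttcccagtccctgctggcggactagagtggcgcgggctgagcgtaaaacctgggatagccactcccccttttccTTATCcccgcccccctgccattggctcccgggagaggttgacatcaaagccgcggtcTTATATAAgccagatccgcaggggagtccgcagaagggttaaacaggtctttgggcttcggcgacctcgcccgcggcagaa
TATAA, the core of a TATA box, matched 2 times at 1 overlapping place, beginning 28 bases before the start site on the gene's own strand, and 20.5% of 34796 RefSeq promoters of this length held it. GATAA, a form of the GATA factor motif, matched 1 time, on the opposite strand, and 22.8% of promoters held it. CANNTG, the E-box to which bHLH dimers bind, had 0 matches in this window, and 68.7% of promoters held it. These matches are descriptions of the letters only.

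Cells were barcodes with at least 2000 genes and at most 15% mitochondrial UMIs, and BMP4 barcodes also had at least 3739 UMIs, since the BMP4 matrix held all droplets. This kept 9401 BMP4 cells, 6876 CHIR+Activin cells and 7084 CHIR cells, with 137174566, 130592423 and 185215378 UMIs and medians of 12623, 17202 and 22919.5 UMIs per cell. A UMI is a molecular tag that marks 1 captured RNA molecule. BMP4 cells shared 12 barcodes with CHIR+Activin and 8 with CHIR, CHIR+Activin and CHIR cells shared 12, and 0 barcodes were in all 3.

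HAND1 was abundant in the BMP4 library, scarce in CHIR+Activin and at the edge of detection in CHIR. Summed over cells, 17653 HAND1 UMIs were counted in BMP4, 156 in CHIR+Activin and 24 in CHIR. Scaled by the library's total to CPM, the level was 128.7 in BMP4 (126.8 to 130.6), 1.19 in CHIR+Activin (1.01 to 1.40) and 0.130 in CHIR (0.0830 to 0.193). The 3 intervals did not overlap. On the log2 scale the BMP4 level was 6.75 above CHIR+Activin (6.52 to 6.99), a 107.7-fold ratio. It was 9.96 above CHIR (9.38 to 10.60), a 993-fold ratio. The CHIR+Activin level was 3.20 above CHIR (2.58 to 3.89), with both under the 10 CPM that a gene needed in 1 library of a pair to be ranked. In that pair 0.183% of ranked genes were at least 2-fold higher in CHIR+Activin.

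Among genes with that minimum, 2.88% were at least 2-fold higher in BMP4 than in CHIR+Activin and 3.09% than in CHIR. HAND1 had the fourth highest ratio of 9968 genes over CHIR+Activin and the highest of 10122 over CHIR. HAND2, the paralogue that marks lateral mesoderm and heart, was at 0.139 CPM in BMP4, 0.115 CPM in CHIR+Activin and 0.292 CPM in CHIR. At 19, 15 and 54 UMIs per library, HAND2 did not share the pattern of HAND1.

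The same order was seen cell by cell. At full depth, 3640 BMP4 cells (38.7%), 73 CHIR+Activin cells (1.06%) and 24 CHIR cells (0.339%) held a HAND1 UMI. Because the libraries differ in depth, cells were also thinned at random to 8000 UMIs each, which left out 803, 141 and 126 shallower cells. The share was then 31.9% in BMP4 (30.9 to 32.9), 0.638% in CHIR+Activin (0.462 to 0.859) and 0.101% in CHIR (0.0405 to 0.207). The largest count in a cell was 60 UMIs in BMP4, 9 in CHIR+Activin and 1 in CHIR, so each of the 24 CHIR cells rests on a single molecule.

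**Figure D1:**
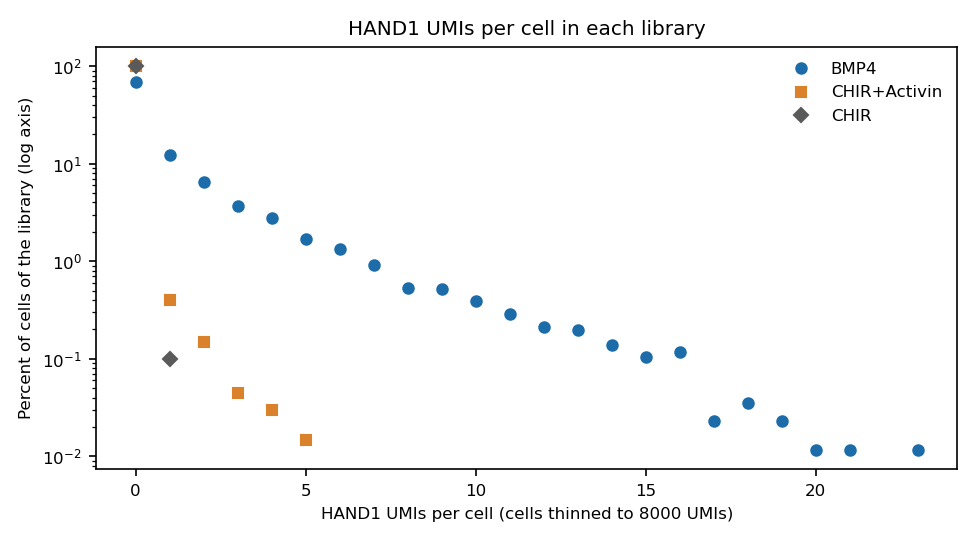
Share of cells (percent, log axis) by number of HAND1 UMIs per cell, after thinning to 8000 UMIs, in the BMP4 (circles), CHIR+Activin (squares) and CHIR (diamonds) libraries; counts held by no cell are not drawn. BMP4 cells run out to 23 UMIs, CHIR+Activin cells stop at 5 and CHIR cells at 1.

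Within the BMP4 library HAND1 was spread very unevenly. The top 10% of cells held 65.3% of its UMIs, while 68.1% of the thinned cells held none. The variance of HAND1 counts was 4.95 times their mean, against a median of 1.07 over 2546 genes within 2-fold of its level. Only 6 of those genes, HPGD, PLPP1, FGF13, LHX1, PCAT14 and ENSG00000289084, were more uneven.

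Free RNA in droplets can give a cell UMIs of a gene it does not express, so this background was measured. Empty BMP4 droplets of 11 to 100 UMIs held HAND1 at 93.2 CPM (85.0 to 101.9). The 3 epiblast-like clusters, whose cells resemble pluripotent epiblast and should lack the gene, held it at 4.12 CPM (3.39 to 4.97), which is 4.42% of the empty-droplet level. The 2 largest of these clusters, at median depths of 13514 and 15093 UMIs, had a HAND1 UMI in 3.15% and 2.06% of thinned cells. Levels near these are read as background below.

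To see which cells carried HAND1, BMP4 cells were clustered from variable genes with HAND1 left out, and clusters were named from fixed marker lists that also leave it out, a marker counting where its CPM was 10 or more and 1.5 times that of the remaining cells. HAND1 was highest in amnion-like cells and next in nascent mesoderm-like cells. Of 16 clusters, the 4 at 200 CPM or more held 32.0% of cells and 77.1% of HAND1 UMIs. The 6 clusters under 20 CPM held 31.0% of cells and 1.21% of HAND1 UMIs.

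Cluster 9 was amnion-like, with 11 of 12 amnion markers, among them TFAP2A, GATA3, ISL1, GABRP and KRT7. It had the highest HAND1 level, 496.5 CPM (482.7 to 510.6) over 639 cells, and 27.8% of all HAND1 UMIs. Within it 63.5% of thinned cells (59.4 to 67.4) held a HAND1 UMI, and these cells averaged 5.76 UMIs. Cluster 13, also amnion-like, stood at 310.8 CPM (294.6 to 327.7) over 174 cells. Its median depth was 26715 UMIs, 2.12 times that of the library, and 37.4% of its cells were among the 6% with the highest doublet scores, which measure likeness to simulated pairs of cells. The part of doublets in that level was not tested.

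Cluster 1, the larger nascent mesoderm-like cluster, carried 10 of 12 markers, including MESP1, TBX6 and APLNR. It held more HAND1 UMIs than any other, 31.6%, at 264.9 CPM (258.0 to 271.9) over 1434 cells. A similar share of cells held HAND1 there as in cluster 9, with fewer UMIs each: 67.3% of thinned cells (64.8 to 69.7) held a UMI, and these averaged 3.23. Cluster 6 shared 9 of those markers but stayed unnamed, since CER1, an endoderm marker in the fixed lists, was among its leading genes. It stood at 217.8 CPM (207.7 to 228.3).

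Intermediate levels were found in cells with streak, caudal or germ cell markers. Unnamed cluster 8, with the caudal markers CDX1, CDX2, EVX1 and WNT8A, was at 115.8 CPM, and 8.21% of its thinned cells held 4 or more HAND1 UMIs. Unnamed clusters 11 and 2 were at 80.5 and 77.8 CPM, with overlapping intervals. Streak-like cluster 10, marked by MIXL1, EOMES and FGF4, was at 52.0 CPM, and 28.4% of its cells were among the highest doublet scores. Germ cell-like cluster 4, marked by SOX17, PRDM1, TFAP2C and NANOS3, was at 45.1 CPM (41.4 to 49.0). The 28 cells of cluster 16, also nascent mesoderm-like but shallow at a median of 4659.5 UMIs, held 6 HAND1 UMIs.

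The lowest clusters were close together. Streak-like cluster 12 was at 11.3 CPM and endoderm-like cluster 15 at 9.20 CPM. Epiblast-like cluster 3, streak-like cluster 7 and epiblast-like clusters 14 and 5 were at 5.31, 5.30, 3.61 and 2.98 CPM. The interval of each overlapped that of the next, but cluster 12 lay above clusters 3, 7 and 5, and cluster 3 above cluster 5, by their intervals. Clusters 12 and 7 took the streak name from FGF8, FGF4 and NODAL, and cluster 12 also from SP5. TBXT, MIXL1 and EOMES were not among their markers. In the order of all 16 clusters, each of the first 5 was separated from the next lower one by its interval.

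**Figure D2:**
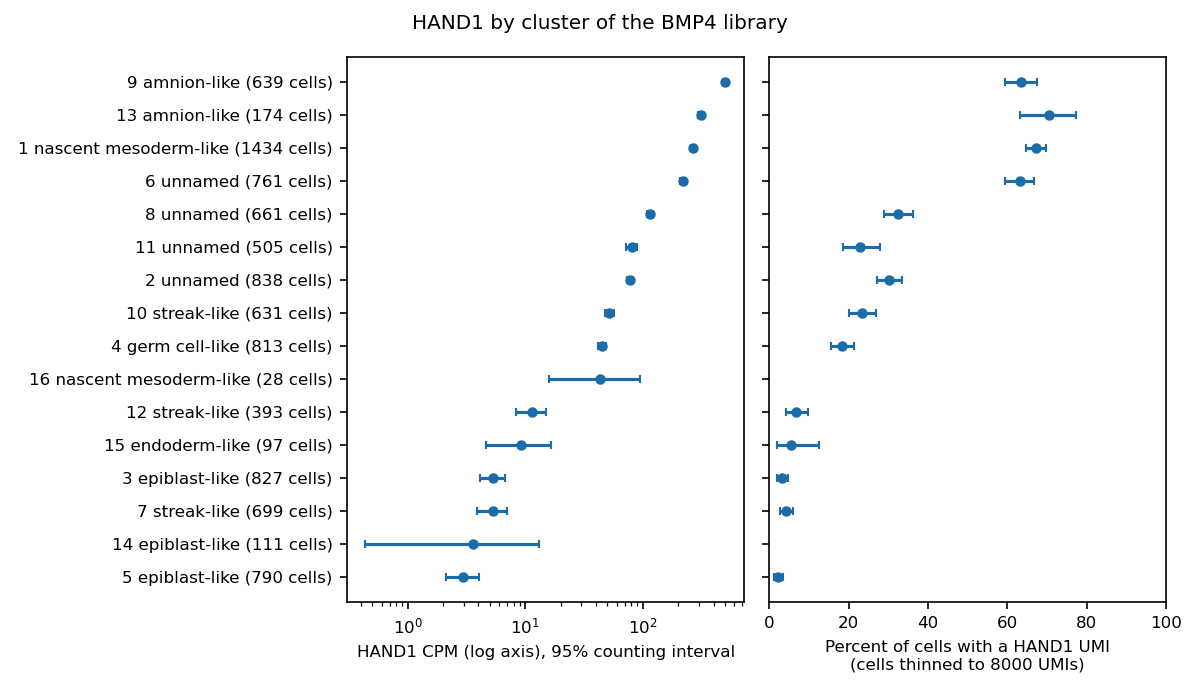
HAND1 by cluster of the BMP4 library, ordered by level: CPM on a log axis (left) and percent of thinned cells with a HAND1 UMI (right, clusters with at least 50 thinned cells), with 95% counting intervals. The top 4 clusters lie between 217.8 and 496.5 CPM with similar shares of positive cells, from 63.1% to 70.6%, and the 3 epiblast-like clusters are at 5.31 CPM or less.

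MESP1, the bHLH factor of nascent mesoderm, and TFAP2A, a factor of amnion and surface ectoderm, marked HAND1 cells that overlapped only in part. Of thinned HAND1 cells, 1938 held MESP1 without TFAP2A, 320 held TFAP2A without MESP1, 189 held both and 294 held neither. Of 509 cells with both HAND1 and TFAP2A, 189 (37.1%) also held MESP1, a smaller part than among HAND1 cells without TFAP2A. Among thinned BMP4 cells, 4140 held MESP1 without TFAP2A, and 46.8% of them (45.3 to 48.3) held HAND1. Of the 765 cells with TFAP2A without MESP1, 41.8% (38.3 to 45.4) did. Of the 458 cells with both, 41.3% did. Only 9.09% (8.12 to 10.1) of the 3235 cells with neither held HAND1. The mean was 2.31 HAND1 UMIs in TFAP2A cells without MESP1 and 1.33 in MESP1 cells without TFAP2A. MESP1 cells without TFAP2A were many more and held 64.5% of HAND1 UMIs, against 20.7% in TFAP2A cells without MESP1. These classes rest on a single UMI or more. In epiblast-like cells 7.62% of 1574 thinned cells (6.36 to 9.05) held MESP1 and 4.51% (3.54 to 5.66) held TFAP2A.

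The genes that go with HAND1 across BMP4 cells mixed both programmes. Likeness was measured as Pearson r of log counts over all kept BMP4 cells, which share 1 library and differ in depth, and is given without p. Of 9637 genes with at least 10 CPM, 37 (0.384%) had r of 0.3 or more and 14 (0.145%) had r of -0.3 or less. In cells thinned to 8000 UMIs, 16 and 6 genes did, and APLNR and ELMO1 were at 0.298 and 0.296. By Spearman rho ISL1 was at 0.298 and EPAS1 at 0.235. The 15 highest began with TBX3, a T-box repressor of lateral mesoderm and amnion (r = 0.50), the ligand gene BMP4 (0.45), BMPER, a secreted BMP modulator (0.44), and MESP1 (0.43). They went on with PLXNA2 (0.39), a semaphorin receptor, RHOBTB3 (0.39), HAPLN1 (0.39), which links hyaluronan in the matrix, and WNT5A (0.38), a WNT ligand of the streak. CDH11, a mesenchymal cadherin, and PRTG were at 0.37 each. The last 5 were APLNR (0.36), the apelin receptor, FBN2 (0.36), the fibrillin of microfibrils, ISL1 (0.36), a LIM factor of amnion and heart progenitors, ELMO1 (0.35) and EPAS1 (0.35), the hypoxia factor HIF-2 alpha.

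The genes least like HAND1 were mostly long noncoding RNAs of undifferentiated cells or unnamed loci. ENSG00000254277 had the lowest r (-0.46). ENSG00000254339 was at -0.39. ESRG, a noncoding RNA of pluripotent stem cells, was at -0.38, KIAA0825 at -0.37 and XACT, a noncoding RNA that coats the X chromosome in human pluripotent cells, at -0.35. CASC15, ENSG00000274090, ENSG00000248605 and LINC00678 lay between -0.35 and -0.34.

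The genes most like HAND1 were ranked differently within the 2 leading populations. In amnion-like cluster 9, 137 of 9437 genes (1.45%) had r of 0.3 or more, led by CTSV, a lysosomal protease (0.71). ARHGAP29 (0.63), GCLM (0.61), EPAS1 (0.60), ARHGAP24 (0.59), SLC8A1, the sodium-calcium exchanger (0.59), KRT8, a simple epithelial keratin (0.57), and TPM1, a tropomyosin (0.56), followed. In nascent mesoderm-like cluster 1, 20 of 9482 genes (0.211%) did. MESP1 led there (0.51), followed by FABP5 (0.45), a fatty acid carrier, CDH11 (0.45), BMPER (0.44), BMP4 (0.39), PRTG (0.39), HS3ST3A1 (0.38) and TBX3 (0.37).

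MESP1 had r = -0.14 with HAND1 in cluster 9 and 0.51 in cluster 1, so its sign depended on the population. CTSV was at 0.71 in cluster 9 and -0.06 in cluster 1. TBX3 was the gene of the 15 with r above 0.3 in both, at 0.47 in cluster 9 and 0.37 in cluster 1. ENSG00000254277 was below -0.2 in both, at -0.51 and -0.27, as were ENSG00000254339, at -0.30 and -0.25, and ESRG, at -0.26 and -0.21.

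**Figure D3:**
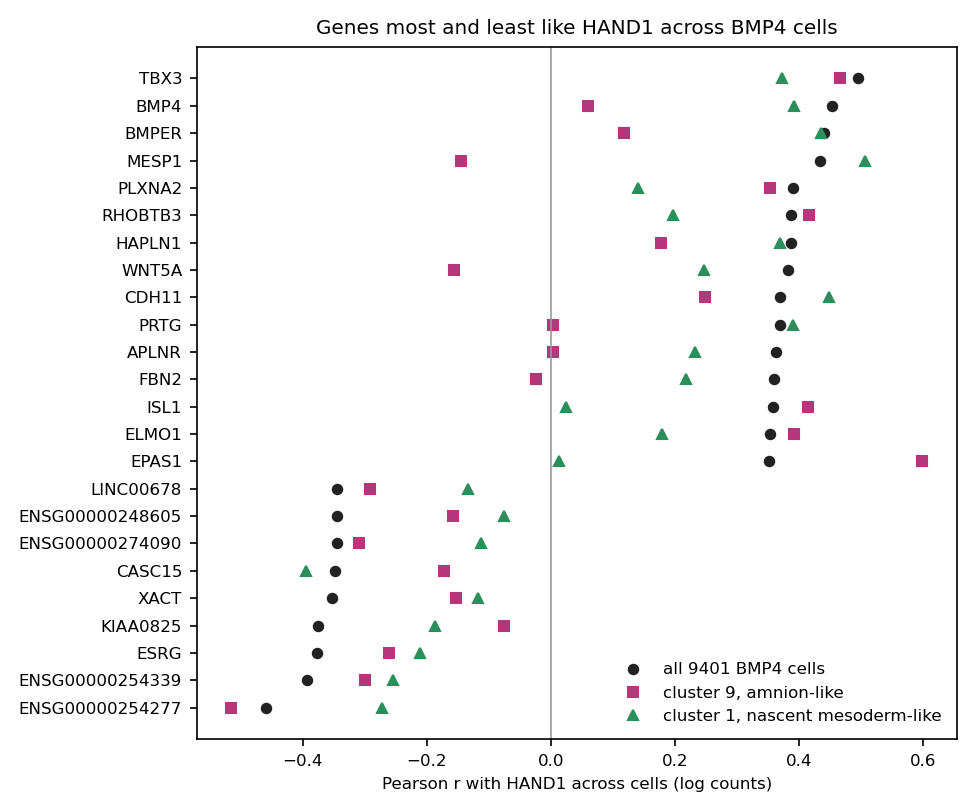
Pearson r with HAND1 across all BMP4 cells (circles), cells of amnion-like cluster 9 (squares) and cells of nascent mesoderm-like cluster 1 (triangles) for the 15 genes with the highest r over all cells and 9 of the 10 with the lowest. MESP1 and WNT5A lie below 0 in cluster 9, at -0.14 and -0.16, where both were far lower in level than in cluster 1, whereas TBX3 lies above 0.3 in all 3 sets.

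Cells were then graded by their HAND1 UMIs out of 8000. The classes held 5857 cells with 0, 1063 with 1, 871 with 2 to 3, 581 with 4 to 7 and 226 with 8 or more. In the top class 116 of 226 cells came from cluster 9 and 60 from cluster 1, while in the class of 4 to 7 UMIs 107 came from cluster 9 and 258 from cluster 1. The mix of clusters thus changed along the classes, and its part in the levels that follow was not tested. A cell with 0 UMIs of 8000 may still hold HAND1 RNA. Members of a list are counted below by the class in which they were highest. No share over all genes is given, so these counts do not set a list apart from other genes.

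TBX3 climbed through all 5 classes, at 42.9, 102.7, 142.7, 195.1 and 257.7 CPM. The BMP4 transcript did the same, at 22.6, 53.5, 95.4, 119.6 and 163.2 CPM. CDH11 went furthest of these in proportion, at 9.37, 30.9, 52.1, 93.6 and 141.6 CPM, and HAPLN1 was at 56.2, 100.1, 131.9, 191.3 and 366.7 CPM. For each of the 4 genes every class was above the one before.

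Of 12 listed nascent mesoderm markers, 10 were highest in a middle class, 4 at 2 to 3 UMIs and 6 at 4 to 7. CDH11 was highest in the top class and MSGN1 at 1 UMI. LFNG, counted at 4 to 7 UMIs, rested on 13 UMIs there, at 2.80 CPM against 1.87 CPM at 2 to 3 UMIs. MESP1 was at 147.6, 382.8, 509.8, 628.2 and 451.3 CPM from the lowest to the highest HAND1 class. GATA6, a factor of mesoderm and endoderm, was at 168.4, 377.6, 461.8, 458.7 and 242.8 CPM. APLNR and WNT5A were likewise highest at 4 to 7 UMIs, at 96.4 and 188.0 CPM, and lower in the top class, at 65.8 and 131.6 CPM. EOMES, a T-box factor of the streak, was at 53.1 CPM in the top class and at 153.8 CPM in cells with 0 UMIs. The lateral or extraembryonic markers were mixed: 5 of 12, TBX3, TBX20, SNAI2, TWIST1 and POSTN, were highest in the top class, and 4 at 4 to 7 UMIs. TWIST1 rested on 5 UMIs in the top class, at 2.77 CPM against 2.58 CPM at 4 to 7 UMIs. TBX20, a T-box factor of the heart, was at 2.37, 4.94, 8.61, 12.0 and 30.4 CPM.

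All 12 listed amnion markers were highest in the top class, VTCN1 from 8 UMIs there. This was not particular to amnion markers. Of 10 listed genes of G2 and mitosis, 9 were highest in that class, as were 8 of 9 BMP response genes and 0 of 10 S phase genes. ISL1 was at 5.66, 13.9, 21.8, 43.9 and 109.5 CPM. TFAP2A was at 57.2 CPM at 4 to 7 UMIs and at 163.7 CPM at 8 or more. KRT7, an epithelial keratin, was at 6.67 CPM and 31.0 CPM in those 2 classes. EPAS1, which is not on that list and entered by its r, was at 1.39, 4.82, 9.04, 30.6 and 171.5 CPM.

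All 8 listed epiblast markers were highest in cells with 0 UMIs, by very different margins. SOX2 was at 30.8, 8.35, 5.17, 4.73 and 3.32 CPM, and NANOG at 39.2, 17.3, 11.3, 5.38 and 3.32 CPM. POU5F1, the pluripotency factor OCT4, was at 943.9, 792.2, 739.4, 725.9 and 759.4 CPM, and DPPA2 at 5.74 CPM and 5.53 CPM in the lowest and the highest class, so these 2 stayed within 2-fold. NODAL, the ligand that maintains streak and endoderm fates, was at 104.2 CPM in cells with 0 UMIs and at 12.2 CPM in the top class.

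**Figure D4:**
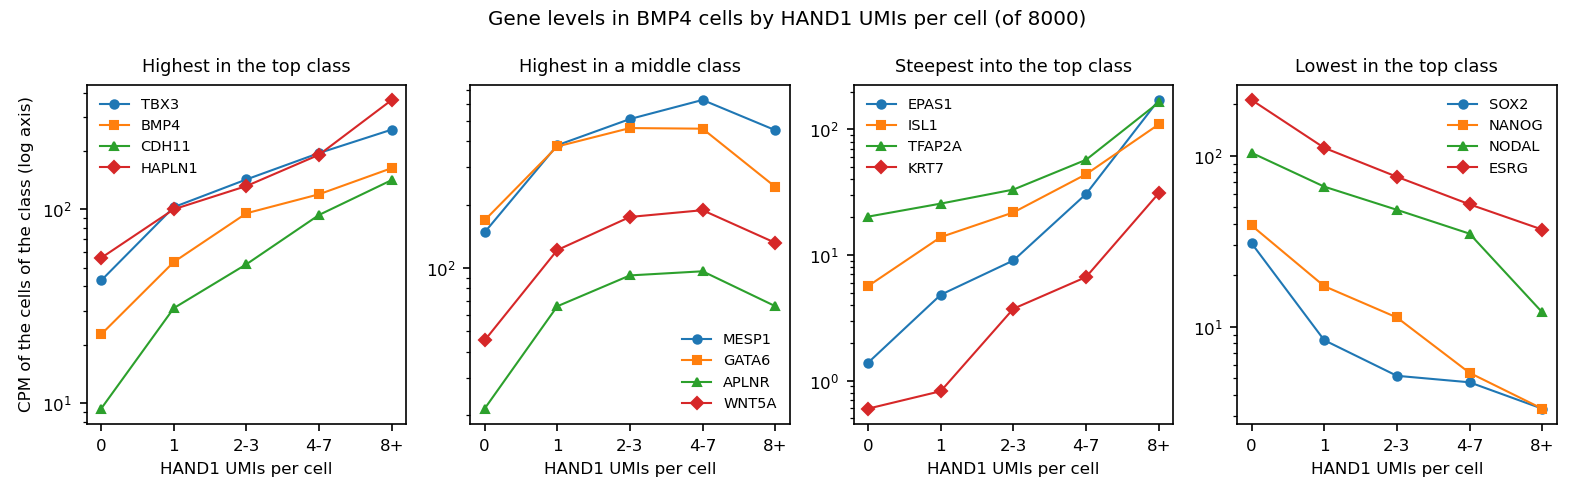
CPM (log axes, 1 scale per panel) of 16 genes in BMP4 cells grouped by HAND1 UMIs per cell after thinning to 8000 UMIs; lines join the classes of 1 gene, and the genes were picked as examples after their values were seen. TBX3, BMP4, CDH11 and HAPLN1 are highest in the top class, MESP1 and GATA6 peak earlier, EPAS1 climbs to 171.5 CPM in the top class, and SOX2 and NANOG end at 3.32 CPM.

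HAND1-high cells, with 4 or more UMIs of 8000, were set against HAND1-zero cells over all genes. There were 807 HAND1-high cells and 5857 HAND1-zero cells, with 240 cells at 4 UMIs just inside the limit and 316 at 3 just outside. Of 9994 genes with at least 10 CPM in either class, 359 (3.59%) were at least 2-fold higher in HAND1-high cells and 324 (3.24%) at least 2-fold lower, and the median log2 ratio was -0.03. The gene lists below, like HAND1 itself, were chosen with earlier results of these data known. Since a filter on level can fix the direction of a low gene, every list member was counted without one, as 2-fold apart in CPM + 1. By that rule, added after the data were seen, 1.8% of 30240 genes with a UMI were higher and 1.98% lower, with a median log2 ratio of -0.05.

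Mesoderm and amnion lists lay on the HAND1-high side. Of 12 nascent mesoderm markers, 9 were at least 2-fold higher and 0 lower (median log2 ratio 1.31), with MESP1 at 578.7 CPM in HAND1-high cells and 147.6 CPM in HAND1-zero cells. Of 12 lateral or extraembryonic mesoderm markers, 7 were higher and 0 lower (median 1.59): FOXF1, GATA4, TBX20, NKX2-5, SNAI2, TBX3 and POSTN. All 12 amnion markers were higher (median 2.32), though 5 reached 10 CPM only in HAND1-high cells and 2 in both classes, with KRT7 at 13.5 CPM in HAND1-high cells and 0.598 CPM in HAND1-zero cells. Of 8 epiblast markers, 6 were at least 2-fold lower (median -1.68), and POU5F1 and DPPA2 were not.

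GATA factors went the same way. Of 5 listed, 4 were higher, with GATA3 at 81.3 CPM in HAND1-high cells against 15.3 CPM in HAND1-zero cells, and GATA6 at 398.2 CPM against 168.4 CPM. Of 11 genes of the epithelial to mesenchymal transition, 7 were higher, including SNAI2, at 23.2 CPM against 3.01 CPM, ZEB2, at 57.9 CPM against 10.0 CPM, and VIM. CDH1 and CDH2, the epithelial and neural cadherins, were within 2-fold. The 2 leading clusters differed: 5 of the 11 were higher in cluster 1, where 2.15% of all genes were. In cluster 9 CDH11 was higher, at 17.9 CPM against 2.36 CPM, and CDH2 lower, at 11.2 CPM against 34.8 CPM. ZEB1 also counted as lower there, but at 0 CPM against 1.18 CPM it rested on very few UMIs. In that cluster 6.32% of all genes were higher and 8.41% lower. From cells with 0 UMIs to the top class, CDH1 was at 139.3 and 261.6 CPM and the epithelial gene EPCAM at 233.1 and 529.9 CPM. CDH2 was at 253.2 and 128.3 CPM and SNAI2 at 3.01 and 28.2 CPM.

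The genes of the BMP pathway were higher in part. Of 9 BMP response genes, 4 were at least 2-fold higher: MSX1, MSX2, BAMBI and SMAD6. MSX2, a homeobox target, was at 118.6 CPM in HAND1-high cells against 37.3 CPM in HAND1-zero cells, and SMAD6, an inhibitory SMAD, at 84.3 CPM against 28.9 CPM. Of 11 BMP ligands and regulators, 4 were higher: BMP4, BMP2, BMPER and NOG. NOG was low, at 4.34 CPM against 0.598 CPM. Within cluster 1 BMP4 and BMPER were higher. Within cluster 9 they and BMP2 were not, with BMP4 at 121.1 CPM against 107.3 CPM, while NOG was higher and CHRD lower, at 0 CPM against 1.18 CPM. Of the response genes SMAD6 was higher in both clusters, MSX2 in cluster 9 only and MSX1 in cluster 1 only.

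The partners of HAND1 were present in both classes. Of the 7 E-proteins and ID inhibitors, 0 were 2-fold apart in either direction. TCF12 was at 254.0 CPM in HAND1-high cells and 243.4 CPM in HAND1-zero cells, TCF3 at 92.3 CPM and 112.9 CPM, and TCF4 at 746.7 CPM and 440.1 CPM. ID1, an inhibitor that BMP induces, was at 1262 CPM and 814.0 CPM. In the top class alone, with 8 or more UMIs, ID1 was at 1892 CPM, more than 2-fold above cells with 0 UMIs. There ID2 was at 286.0 CPM against 114.2 CPM and ID4 at 44.8 CPM against 19.8 CPM. ID3, TCF3, TCF4 and TCF12 stayed within 2-fold. Across libraries TCF12 was equally even, at 248.7 CPM in BMP4, 237.1 CPM in CHIR+Activin and 256.2 CPM in CHIR, whereas ID1 was at 872.2, 195.5 and 133.2 CPM. Cell cycle genes did not separate the classes either: 0 of 10 S phase genes and 0 of 10 genes of G2 and mitosis were 2-fold apart.

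Within cluster 9 the comparison sets cells of 1 cluster, named amnion-like as a whole, against each other, 223 HAND1-high and 212 HAND1-zero. Whether they are 1 cell state was not tested. Of 9996 genes, 391 (3.91%) were at least 2-fold higher and 556 (5.56%) at least 2-fold lower, with a median of -0.08. Without a filter, 6.32% of 21389 genes were higher and 8.41% lower. Of 12 amnion markers, 10 were higher and 0 lower by that rule, 5 of the 12 having reached 10 CPM only in HAND1-high cells, and these same markers named the cluster. Of 12 nascent mesoderm markers, CDH11 was higher and MESP1 lower, the latter at 7.85 CPM in HAND1-high against 24.8 CPM in HAND1-zero cells. KRT7 was at 42.0 CPM in HAND1-high cells against 2.95 CPM in HAND1-zero cells, TFAP2A at 269.6 CPM against 104.4 CPM, and EPAS1 at 239.9 CPM against 9.43 CPM. Of 8 streak markers, 5 were lower and 0 higher, 3 of the 8 having reached 10 CPM only in HAND1-zero cells. TBXT, the brachyury factor, was at 13.5 CPM against 92.0 CPM, and NODAL at 11.8 CPM against 94.9 CPM. SOX17, a germ cell and endoderm factor, was at 21.3 CPM against 68.4 CPM.

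Within cluster 1 there were 318 HAND1-high and 457 HAND1-zero cells. Of 9794 genes, 123 (1.26%) were at least 2-fold higher and 171 (1.75%) at least 2-fold lower, with a median of -0.03. Without a filter, 2.15% of 23643 genes were higher and 3.29% lower. Of 12 lateral or extraembryonic mesoderm markers, 5 were higher and 0 lower by that rule, 3 of the 12 having reached 10 CPM only in HAND1-high cells, with SNAI2 at 36.6 CPM in HAND1-high cells against 9.57 CPM in HAND1-zero cells. FOXF1, a forkhead factor of lateral and extraembryonic mesoderm, was at 19.3 CPM against 1.09 CPM, from 49 and 4 UMIs. Of 12 amnion markers, GATA3, GATA2 and HEY1 were higher and 0 lower. Of the 12, 2 reached 10 CPM only in HAND1-high cells and 0 in both classes. HEY1 was low, at 3.54 CPM against 0.821 CPM. TFAP2A, at 3.93 CPM against 5.47 CPM, and ISL1, at 8.25 CPM against 8.21 CPM, were not higher. GATA6 was within 2-fold there, at 677.3 CPM against 605.9 CPM, although it was more than 2-fold apart over all cells.

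Some of these genes were common to both populations. Of 9040 genes measured in both clusters, 186 (2.06%) were at least 2-fold higher in HAND1-high cells of cluster 9 and 75 (0.830%) in those of cluster 1. The 19 genes on both lists are 10.2% of the cluster 9 list and 25.3% of the cluster 1 list. They included TBX3, CDH11, GATA2, GATA3, SMAD6, MEIS2 and GADD45G. A gene was measured in a cluster with 10 CPM in either class, a filter that can fix the direction of a low gene. Of those named, TBX3 and SMAD6 were above 10 CPM in both classes of both clusters. The others were under 10 CPM in HAND1-zero cells of 1 or both clusters, with GATA2 at 11.8 CPM against 1.91 CPM in cluster 1. MEIS2, a homeobox cofactor, was at 89.1 CPM in HAND1-high against 2.95 CPM in HAND1-zero cells of cluster 9, and at 12.6 CPM against 2.46 CPM in cluster 1. Another 24 genes were lower in both, 5.44% of the 441 in cluster 9 (4.88% of all 9040) and 25.5% of the 94 in cluster 1 (1.04% of all), among them NODAL, SOX17 and PRDM1. PRDM1, the repressor BLIMP1 of germ cell precursors, was at 9.53 CPM against 36.6 CPM in cluster 9 and at 3.14 CPM against 10.7 CPM in cluster 1. It thus passed the filter only through HAND1-zero cells, as SOX17 did in cluster 1, at 6.68 CPM against 26.5 CPM. NODAL was above 10 CPM in both classes of both clusters.

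**Figure D5:**
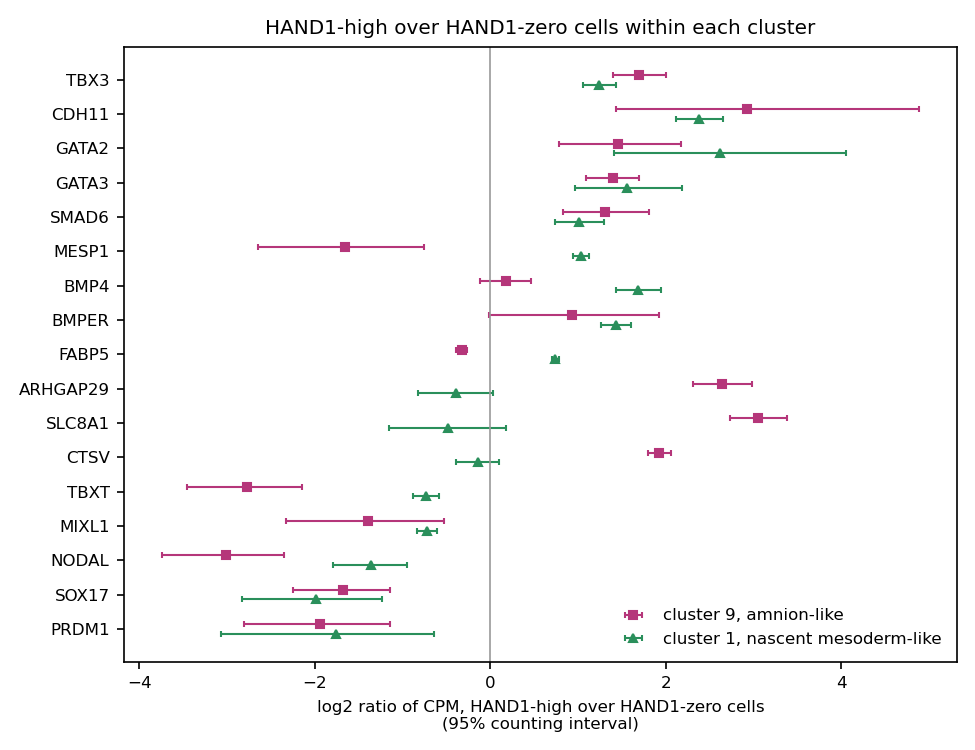
Log2 ratio of CPM in HAND1-high over HAND1-zero cells for 17 genes within amnion-like cluster 9 (squares) and nascent mesoderm-like cluster 1 (triangles), with 95% counting intervals. TBX3, CDH11, GATA2, GATA3 and SMAD6 lie above 1 in both clusters, whereas MESP1 and FABP5 lie on opposite sides of 0. In HAND1-zero cells CDH11 was under 10 CPM in cluster 9, and GATA2 and GATA3 were in cluster 1. In cluster 9 MESP1 was low, at 7.85 CPM against 24.8 CPM.

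A small group of HAND1 cells was also present under CHIR+Activin. There, 32 cells held 2 or more HAND1 UMIs, 41 held 1 and 6803 held 0. Cells with 2 or more HAND1 UMIs carried MESP1 at 324.4 CPM (281.5 to 372.0), against 2.66 CPM in cells with 0. They carried GATA6 at 659.9 CPM against 50.1 CPM, CER1, a secreted NODAL and BMP antagonist, at 1407 CPM against 155.0 CPM, and APLNR at 98.1 CPM against 2.26 CPM. SOX2 was at 6.33 CPM against 87.0 CPM. TFAP2A had 1 UMI in these 32 cells, and FOXA2, a factor of definitive endoderm, was at 3.17 CPM against 40.9 CPM.

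Cells with a MESP1 UMI differed between the libraries in how often they held HAND1, but they were not matched for MESP1 level. MESP1 was at 244.5 CPM in BMP4 and 4.79 CPM in CHIR+Activin, and a single UMI can be background. GATA6 was at 237.8 CPM in BMP4, 55.8 CPM in CHIR+Activin and 14.9 CPM in CHIR. The part of these levels in the shares below was not tested. Of thinned cells with a MESP1 UMI, 2127 of 4598 BMP4 cells (46.3%, 44.8 to 47.7) and 25 of 152 CHIR+Activin cells (16.4%, 10.9 to 23.3) held a HAND1 UMI. No share is given for CHIR, where MESP1 was at 0.734 CPM. Among cells with a GATA6 UMI the shares were 45.0% of 4629 BMP4 cells, 3.77% of 1035 CHIR+Activin cells and 0 of 470 CHIR cells, which allows up to 0.638%. In CHIR+Activin cells without MESP1 the share was 0.273%.

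The 24 CHIR cells with a HAND1 UMI did not resemble that group. Their MESP1 level rested on 1 UMI, GATA6 was at 6.77 CPM against 14.9 CPM in CHIR cells without HAND1, and SOX2 was at 58.2 CPM against 71.2 CPM. Their median depth was 27846.5 UMIs, against 22910 UMIs in the other CHIR cells. With 1 UMI in each of these cells, the HAND1 level of the CHIR library is at the limit of this depth, and no empty droplets of that library were analysed here.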

How the data were processed

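Single-cell RNA of 3 libraries, 1 per treatment, was analysed from raw UMI counts per gene and barcode that the authors deposited, with Cell Ranger 8.0.1 named in the file headers; Seurat is also named in the submitters' processing notes. For genome build and annotation: not given in the sources used here. The BMP4 minimum of 3739 UMIs was set at 10% of the UMI count at percentile 99 among the 10000 deepest barcodes. Filters removed 39 BMP4, 515 CHIR+Activin and 622 CHIR barcodes. Doublets were kept; leaving out the 6% with the highest scores, by a Scrublet-type procedure with 2 simulated doublets per cell, was an alternative.

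Levels are CPM with exact Poisson intervals, shares have exact Clopper-Pearson intervals, and ratios have exact conditional binomial intervals; a count of 0 was set at 3 counts. All cover counting error only. Clusters came from 2000 variable genes without HAND1, 30 principal components, 20 neighbours and Leiden resolution 1 (scanpy 1.11.5). A marker counted at 1.5-fold over other clusters and at least 10 CPM; a name needed 3 markers, no tie, and no more markers of another class among the 10 leading genes. Likeness is Pearson r of log counts scaled to 10000 per cell. Genes named are HAND1, the 15 with the highest and 10 with the lowest r, the 8 highest in each of the 2 clusters with the most HAND1 and at least 200 cells, and members of the marker and pathway lists (1 gene among the 10 lowest is not reported here); PRTG, FABP5 and the like entered by that rule, whereas MEIS2, GADD45G, HOXB2 and HOXB6 were named after their values were seen, as were the 6 genes more uneven than HAND1. Members of the lists were counted without a filter on level, as log2 ratios of CPM + 1 (pseudocount 1 CPM), a rule added after the data were seen. HAND1 and the lists were chosen with earlier results of these data known. The calculations were tested on simulated data.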

Additional observations from a re-analysis of the deposited data

How the results depend on the processing

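No paired analysis was possible because each treatment was 1 library, and for the same reason no replicate could be left out. No result reversed. Of the recomputed main values, 67 stayed within the counting interval or within 1.5 times the count, and the 31 others follow. Without mitochondrial and ribosomal protein genes HAND1 was at 162.0 CPM in BMP4 and 1.52 CPM in CHIR+Activin, and the ratios between libraries kept their values within their intervals. The share of cells followed the depth. In BMP4 it was 26.9%, 36.5% and 38.7% at 5000 UMIs, at 12000 UMIs and unthinned, 30.9% without doublets and 19.5% for 2 or more HAND1 UMIs. Unthinned it was 1.06% in CHIR+Activin and 0.339% in CHIR. For 2 or more UMIs it was 0.238% in CHIR+Activin and 0 of 6958 cells in CHIR, which allows up to 0.0431%. Which clusters took the nascent mesoderm name moved with the clustering. Their level was 328.1 CPM without doublets, 255.9 CPM with the stricter cell filter, 216.3 and 201.2 CPM at resolutions 0.5 and 2, and 256.0 CPM with 50 principal components. Their share of HAND1 UMIs was 32.8%, 36.9%, 47.4%, 21.5% and 41.8% in the same order. Amnion-like clusters were at 463.4 CPM without doublets, and epiblast-like clusters at 5.65 CPM at resolution 0.5 and 5.62 CPM with 50 components. Genes at r of 0.3 or more numbered 16 in thinned cells and 19 at 50 CPM or more, and those at -0.3 or less numbered 6 in thinned cells. With 50 CPM, 138 genes were higher and 81 lower in HAND1-high cells, and with no filter, on CPM + 1, 544 and 599, an alternative chosen after seeing the data. The construction of these last alternatives, fewer UMIs or a different number of genes, changes such counts; the cause of the other shifts was not tested.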

Other observations

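HOX genes, which give position along the body axis, were looked at after HOXB2 and HOXB6 were seen among the genes higher in both clusters. Of 39 HOX genes listed, these 2 reached 10 CPM in HAND1-high or HAND1-zero BMP4 cells, both only in HAND1-high cells, so their direction was given by how they were found. HOXB2 was at 23.7 CPM in HAND1-high cells, from 153 UMIs, against 0.470 CPM in HAND1-zero cells, from 22 UMIs, a 50.5-fold ratio. HOXB6 was at 21.1 CPM against 0.299 CPM, from 136 and 14 UMIs, a 70.5-fold ratio. In amnion-like cluster 9, HOXB6 had 50 UMIs in HAND1-high cells and 0 in HAND1-zero cells, which makes it at least 15.8-fold higher, and in nascent mesoderm-like cluster 1 it had 55 and 0 UMIs, at least 26.3-fold higher. These bounds set the HAND1-zero cells of each cluster at 3 counts in all.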
